A study of Homo sapiens with 6 samples.

Results

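The carbonic anhydrases measured here were the 9 genes *CA2*, *CA3*, *CA5B*, *CA8*, *CA9*, *CA11*, *CA12*, *CA13* and *CA14*, matched by symbol in the read-count tables of all 6 libraries, 9 of 55767 gene symbols in all. The set was chosen from earlier results of the same contrast, in which *CA2* and *CA12* stood out, so the sh-*RREB1* against sh-control values of the 9 genes are given below as a description, with no test read from them. The libraries were made from total RNA of cells labelled HEK293T, a human embryonic kidney line transformed with adenovirus DNA and carrying SV40 large T antigen. The study names HEK293 cells for its RNA-seq and HEK293T for the lentiviral infection, so the line is not settled. The cells were grown in DMEM with 10% FBS and carried a stable pLKO.1 lentiviral vector that expressed either a control shRNA or an shRNA targeting *RREB1*, a zinc finger transcription factor of the RAS-MAPK pathway. Each group had 3 libraries (sh-control 1 to 3 and sh-*RREB1* 1 to 3), and the sources used here do not say whether the 3 came from separate cultures, so p-values may measure technical spread only. Both groups were infected with the vector and selected with neomycin as stable lines, whose number of clones is not given in the sources used here, and the hairpin against *RREB1* was the first of the study's pair, sh1.

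Carbonic anhydrases are zinc enzymes that interconvert carbon dioxide and water with bicarbonate and a proton, and so link respiration and metabolism to the pH of the cell and its surroundings. The family members differ in where they act. *CA2*, *CA3* and *CA13* encode cytosolic enzymes, *CA5B* a mitochondrial enzyme, and *CA9*, *CA12* and *CA14* transmembrane enzymes whose active site faces the outside of the cell, while *CA8* and *CA11* encode carbonic anhydrase-related proteins that lack the catalytic activity. In the kidney, cytosolic *CA2* is the main form and works with bicarbonate and proton transporters in the reabsorption of bicarbonate, and its inherited loss causes osteopetrosis with renal tubular acidosis.

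The promoters of *CA12* and *CA9* are shown because both genes are textbook targets of the hypoxia-inducible factors, while one was read in every library and the other in none. The 250 bases before the RefSeq start (GRCh38.p14) lie at chr15:63381847-63382096 on the minus strand for *CA12* and at chr9:35673678-35673927 on the plus strand for *CA9*. Capitals mark 3 words searched on both strands, the hypoxia words ACGTG and GCGTG and the C-rich word CCCCACC, of the kind that RREB1 is known to bind, and no 2 marked words overlapped in these windows.
CA12: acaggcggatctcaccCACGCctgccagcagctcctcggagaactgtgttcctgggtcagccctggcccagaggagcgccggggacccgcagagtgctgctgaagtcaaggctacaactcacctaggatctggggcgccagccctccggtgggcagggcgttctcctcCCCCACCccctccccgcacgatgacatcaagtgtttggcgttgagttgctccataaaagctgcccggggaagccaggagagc
CA9: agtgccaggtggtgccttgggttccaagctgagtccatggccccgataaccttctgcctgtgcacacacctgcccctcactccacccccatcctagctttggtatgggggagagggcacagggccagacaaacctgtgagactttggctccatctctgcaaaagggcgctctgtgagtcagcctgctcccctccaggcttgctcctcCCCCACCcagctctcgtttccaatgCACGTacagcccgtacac
The *CA12* window held GCGTG on the opposite strand, starting 234 bases before the gene start, and CCCCACC on the strand of the gene, starting 82 bases before it. The *CA9* window held CCCCACC 43 bases before the start and ACGTG on the opposite strand 18 bases before it. These words are common, and among the 250 bases before the start of all 35116 promoters in the table ACGTG was in 18.5%, GCGTG in 32.2% and CCCCACC in 16.95% of them. Of the other members, only *CA5B* and *CA14* were examined. The *CA5B* window held 6 GCGTG words and 1 CCCCACC word, and the *CA14* window none of the 3 words. The promoters of *CA2*, *CA3*, *CA8*, *CA11* and *CA13* were not examined, so whether they hold these words was not tested.

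Reads on genes totalled 23362197 to 33044061 in the sh-control libraries and 12257054 to 26145878 in the sh-*RREB1* libraries. Library sh-*RREB1* 3 stood apart, with the lowest total and 52.1% of its reads mapped to several places, against 3.66% to 7.63% in the other 5. Library sh-control 1 stood apart from the other controls by base composition. Its log2 CPM (reads of a gene per 1000000 reads on genes, with library sizes scaled by TMM, a trimmed mean over genes) were 0.25 higher in the tenth of expressed genes with the lowest GC content and 1.07 lower in the tenth with the highest (medians against the mean of sh-control 2 and 3). *RREB1* itself was at 26.3 ± 1.02 CPM in sh-control and 23.8 ± 0.736 in sh-*RREB1* (mean ± SD, n = 3 each), a log2 fold change of -0.14 with an SE of 0.13 and an adjusted p of 0.486 (edgeR's quasi-likelihood test). Its 3 sh-*RREB1* values lay below the controls, and with the GC and length offset described below its log2 fold change was -0.36 with an adjusted p of 0.0534, so the groups are called here the libraries labelled sh-control and sh-*RREB1*. The study itself reported a marked reduction of *RREB1* mRNA and protein with sh1, by assays other than these reads. Of the 9 HEK293T markers all had reads, *PAX2* only 3 in each sh-control library, and summed to 511 to 571 CPM in sh-control and 825 to 934 in sh-*RREB1*. *VIM* was the largest part of the sum, at 340.1 ± 17.3 and 571.6 ± 43.0. Of those markers *EYA1* rose (log2 fold change 1.83, and 1.999 with the offset) and *NES* fell (-1.25, and -2.13 with the offset). Without the offset neither was past the thresholds when sh-control 2 or sh-*RREB1* 3 was left out, and *NES* also not without sh-control 3 or sh-*RREB1* 1. Fibroblast markers summed to 0.348 to 0.779 CPM in sh-control and 1.03 to 7.23 in sh-*RREB1*, where 7.23 was library 2 and the other libraries were at 2.10 and 1.03. *COL1A2* was at 0 in sh-control and at 0, 103 and 1 reads in sh-*RREB1*. The part of these markers in the results was not tested. Of the markers of erythroid cells, which are rich in *CA2*, *HBB*, *HBA1* and *ALAS2* were at 0 in all 6 libraries, and *HBA2* and *SLC4A1* had 1 read each. Markers of osteoclasts, also listed for high *CA2*, summed to 9.35 to 11.5 CPM in sh-control and 8.64 to 10.7 in sh-*RREB1*. Their part in the *CA2* values was not tested.

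Of the 9 members, 8 had at least 10 reads summed over the libraries and were fitted among the 23304 genes tested, and *CA9* had none. Of the 8, *CA2* was past the thresholds used for all genes (adjusted p under 0.01 with a log2 fold change beyond 1 in either direction) on the lower side and *CA12* on the higher side, where 3.41% of all tested genes were past them, 2.71% higher and 0.699% lower. In 5 of the 8 the 3 sh-*RREB1* values lay all above or all below the 3 sh-control values, as in 41.1% of all genes tested. The median log2 fold change of the 8 was 0.05, beside 0.01 over all genes tested. Since the genes were selected on this contrast, nothing is read from these counts. In all values from these bulk libraries, fewer cells expressing a gene and less RNA per cell cannot be told apart.

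*CA2*, the high-activity cytosolic enzyme, lies on the plus strand of chromosome 8 (hg38, 85463968 to 85481493). Its reads numbered 11423, 13366 and 14573 in sh-control 1 to 3 and 4115, 5161 and 2257 in sh-*RREB1* 1 to 3. In CPM the values were 497, 492 and 454 against 166, 197 and 179. The groups did not overlap, and the lowest control was more than 2 times the highest sh-*RREB1* library. The means were 481 ± 23.4 and 181 ± 15.8, so that the sh-*RREB1* level was 37.6% of control, with a log2 fold change of -1.41 and a 95% interval from -1.66 to -1.17. Among the 163 genes past the thresholds on the lower side, *CA2* was 66th by fold and 2nd by its level in sh-control. Its mean fell by 300.3 CPM, the 34th largest loss of 23304 genes.

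**Figure D1:**
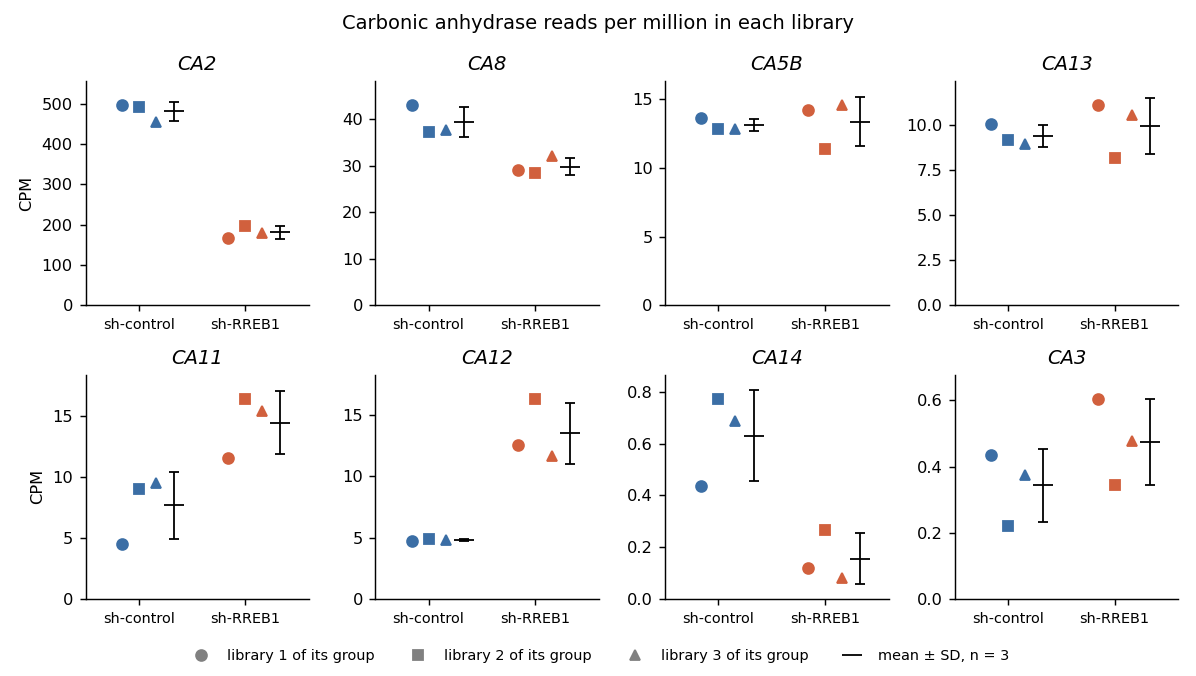
CPM (vertical axes from 0) of the 8 detected carbonic anhydrases in the 3 sh-control (blue) and 3 sh-*RREB1* (orange) libraries, with a marker shape for each library number and the mean ± SD beside each group. *CA2* fell from a mean of 481 to 181 without overlap, *CA12* went from 4.81 to 13.5 without overlap, and the groups overlapped for *CA5B*, *CA13* and *CA3*.

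The other cytosolic members were read far less. *CA13*, an enzyme of the same gene cluster on chromosome 8 (85220587 to 85284073), had 232, 249 and 287 reads in the control libraries and 276, 214 and 133 in those labelled sh-*RREB1*. Its means of 9.40 ± 0.610 and 9.95 ± 1.56 CPM overlapped, with a log2 fold change of 0.08 and an interval from -0.32 to 0.48, which leaves out a change of the size seen for *CA2*. *CA3*, the low-activity enzyme of skeletal muscle, was close to the limit of detection, with 10, 6 and 12 reads against 15, 9 and 6, and its interval from -0.49 to 1.42 was wide. The muscle markers summed to 0.156 to 0.331 CPM in sh-control and 0.238 to 0.573 in sh-*RREB1*, with *MYH1* at 0 in all libraries and *ACTA1* at 2 to 5 reads against 3 to 12, and their part in the *CA3* values was not tested. Reads on the strand opposite *CA3*, where *CA1* and *CA3-AS1* are annotated, numbered 8, 6 and 14 in sh-control and 5, 3 and 3 in sh-*RREB1*. They made up 44.4% to 53.8% of its reads on either strand in sh-control and at most 33.3% in sh-*RREB1*. These counts are too small to show a shift between strands.

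*CA5B*, the mitochondrial enzyme on chromosome X (15688830 to 15788411), was at 13.1 ± 0.454 CPM in sh-control and 13.4 ± 1.77 in sh-*RREB1*. Its log2 fold change was 0.02, with an interval from -0.34 to 0.39. The span of the gene, introns included, overlaps that of its unprocessed pseudogene *CA5BP1* on the same strand by 14363 bases. Reads that fit both genes may be left out of both counts, so both levels are uncertain. *CA5BP1* was at 13.0 ± 0.892 and 15.5 ± 2.86, and the groups overlapped for both genes.

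*CA12*, a transmembrane enzyme of epithelia, lies on the minus strand of chromosome 15 (63321378 to 63381846) with 109, 132 and 155 reads in the control libraries and 310, 426 and 147 in the sh-*RREB1* libraries. In CPM the values were 4.74, 4.86 and 4.83 against 12.5, 16.3 and 11.7. The controls were nearly equal, and every sh-*RREB1* library lay above all of them. The means of 4.81 ± 0.0602 and 13.5 ± 2.47 gave a 2.81-fold higher level, a log2 fold change of 1.49 with an interval from 1.07 to 1.91. Among the 631 genes past the thresholds on the higher side *CA12* was 379th by fold.

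The other transmembrane members were nearly or wholly silent. *CA14*, on chromosome 1 (150257251 to 150265078), gave 10, 21 and 22 reads in the controls and 3, 7 and 1 in sh-*RREB1*. The groups did not overlap, but the log2 fold change of -1.87 had an interval from -2.98 to -0.77 and was not past the thresholds. On the opposite strand the same gene had more reads, 64, 76 and 119 against 41, 75 and 32, which were 78.4% to 97.0% of its reads on either strand, and with both strands counted the log2 fold change was -0.56. *CA9*, the hypoxia-induced enzyme of many carcinomas, at chromosome 9 (35673928 to 35681159), had 0 reads in all 6 libraries. A count of 0 allows up to 3 reads, or 0.0935 to 0.238 CPM in a library and 0.0206 over the 6, counting error only.

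The 2 carbonic anhydrase-related members had values on opposite sides of 0. *CA8*, which encodes a binding partner of the IP3 receptor ITPR1 and lies on the minus strand of chromosome 8 (60185412 to 60281400), measured 43.1, 37.4 and 37.8 CPM in the controls against 29.1, 28.4 and 32.0. Its groups did not overlap, with a log2 fold change of -0.40 and an interval from -0.70 to -0.11, and *ITPR1* was at 50.7 ± 1.84 and 55.5 ± 7.07 with overlapping groups. *CA11*, a secreted related protein expressed in brain, lies on chromosome 19 (48637946 to 48646187). It was at 4.53, 9.02 and 9.54 against 11.6, 16.4 and 15.5, a log2 fold change of 0.91 with an interval from 0.27 to 1.55. Neither gene was past the thresholds, and sh-control 1 was the lowest library for *CA11*, 1.03 below the mean of the other controls on the log2 scale.

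Base composition moved with several of these values. The exons of *CA11* were 58.9% GC, those of *CA8* 37.6% and those of *CA2* 40.5%, beside a median of 46.7% over expressed genes. With an offset for GC content and length fitted in each library, the log2 fold change of *CA11* was 0.20 (interval -0.08 to 0.49), that of *CA8* -0.16 (-0.42 to 0.09) and that of *CA2* -1.09 (-1.35 to -0.83). *CA12*, at 49.1% GC, kept a value of 1.46 (1.18 to 1.73). *CA2* and *CA12* were again the members past the thresholds, where 3.02% of all genes were, 424 higher and 280 lower against 631 and 163 without the offset. After the offset the log2 levels of *CA2* were 8.70, 8.81 and 8.76 in sh-control and 7.41, 7.93 and 7.60 in sh-*RREB1*, still without overlap.

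**Figure D2:**
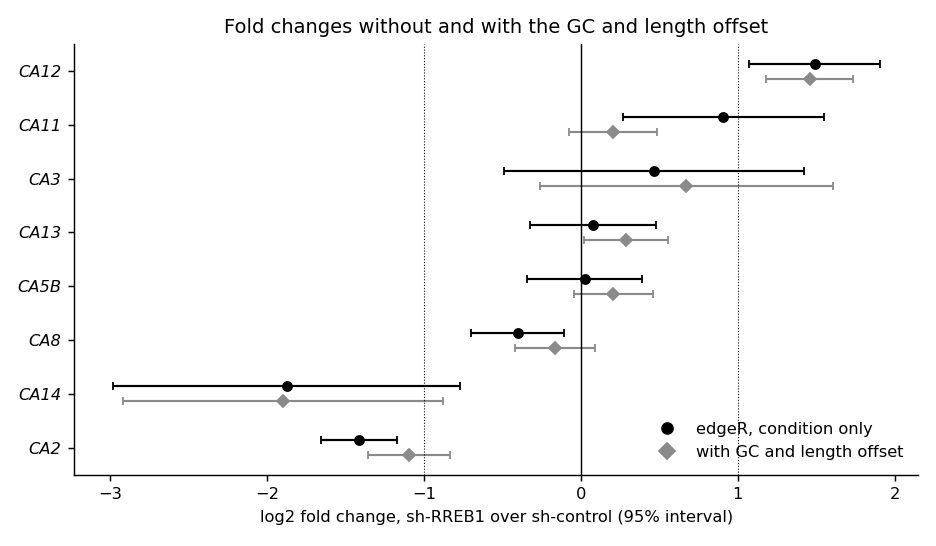
Log2 fold changes of sh-*RREB1* over sh-control (horizontal axis) for the 8 detected members with 95% intervals, from the fit on condition only (black circles) and with the GC and length offset (grey diamonds). Dotted lines mark the threshold of 1 in either direction. *CA11* went from 0.91 to 0.20 and *CA8* from -0.40 to -0.16 with the offset, while *CA12* stayed at 1.49 and 1.46.

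Leaving out single libraries moved the fold changes of *CA2* and *CA12* little and their place against the thresholds more. Without sh-*RREB1* 3 the log2 fold change was -1.41 for *CA2* and 1.58 for *CA12*, and neither gene was past the thresholds, when 8 genes of the whole table were. Without sh-control 2 the values were -1.42 and 1.46, with neither past them and 9 genes in all. Without sh-*RREB1* 1 they were -1.35 and 1.54, and *CA2* alone of the members was past them. Over all 22 alternatives *CA2* ranged from -1.48 to -0.98 and *CA12* from 1.33 to 1.58.

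To compare genes with each other, the CPM of each gene was divided by its exonic length in kilobases (RPKM). In sh-control *CA2* was at 239.7 ± 11.6 RPKM, 46.9 times the next member, and was the 97th highest of 23304 genes on this scale. *CA8* at 5.11 and *CA11* at 3.95 followed and their ranges over the controls overlapped, as did those of *CA13* at 1.68 and *CA5B* at 1.54. *CA12* at 0.687 was below these, and *CA14* at 0.192 and *CA3* at 0.151 were not separated from each other. In sh-*RREB1* *CA2* was at 90.04 ± 7.88 RPKM and 308th. *CA11* at 7.45 was then above *CA8* at 3.87, and *CA12* at 1.93 lay beside *CA13* at 1.78, with overlapping ranges.

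**Figure D3:**
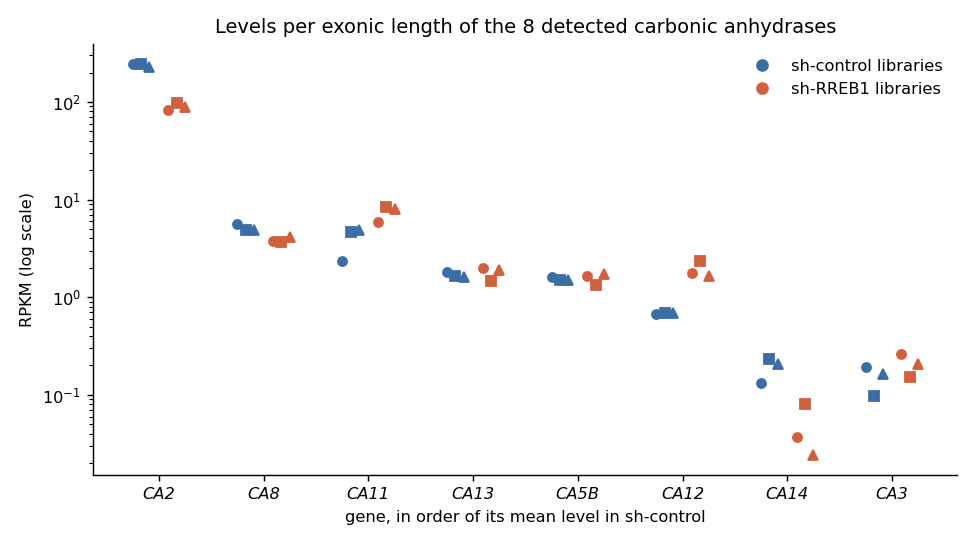
CPM per kilobase of exon (RPKM, log axis) of the 8 detected members in each library, ordered by the mean in sh-control, with sh-control in blue and sh-*RREB1* in orange. *CA2* lies far above the rest in all 6 libraries, and *CA12* moves from below *CA5B* in sh-control to the level of *CA13* in sh-*RREB1*. *CA9*, at 0 throughout, is not drawn.

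The family total followed *CA2*. On the RPKM scale *CA2* made up 95.3%, 94.7% and 94.2% of the summed level of the 9 members in sh-control and 84.2%, 84.9% and 83.5% in sh-*RREB1*. The sum without *CA2* was 12.3, 13.7 and 13.97 RPKM against 15.5, 17.5 and 17.6, so the remaining members did not fall as a sum (no GC offset). *CA12* made up 0.261% to 0.287% of the sum in sh-control and 1.56% to 2.01% in sh-*RREB1*. Even there *CA2* remained the first member by level in every library.

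Of the other enzymes of the family almost no reads were found. Of 13 other listed genes, 5 had enough reads to be tested, and none of the 5 was a carbonic anhydrase enzyme. They were the pseudogenes *CA15P1* and *CA5BP1*, the antisense gene *CA3-AS1*, and *PTPRG* and *PTPRZ1*. None was past the thresholds, with 2 at an unadjusted p below 0.05 in edgeR (34.4% of all genes tested) and 0 called by DESeq2. *CA1*, *CA6*, *CA7* and *CA10* were at 0 in all libraries, and *CA4* and *CA5A* had 2 reads and 1 read over all 6. *PTPRG*, a receptor tyrosine phosphatase with a carbonic anhydrase-like domain outside the cell, was the highest of them, at 75.3 ± 11.5 and 96.9 ± 11.8 CPM. Its log2 fold change was 0.36 with an adjusted p of 0.11 (edgeR), and 0.55 with an adjusted p of 0.00174 with the GC and length offset, short of a log2 fold change of 1. *PTPRZ1*, of the same kind, was at 4.04 ± 1.08 and 4.24 ± 0.229.

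The transporters that move bicarbonate and protons beside the carbonic anhydrases gave no call in edgeR as fitted on condition only with a minimum of 10 reads, and 1 to 4 calls under 8 of the 22 alternatives. Of 36 genes listed 28 were tested, with a median log2 fold change of 0.40 beside 0.01 over all genes, and 10 higher and 3 lower were at an unadjusted p below 0.05 in edgeR, as were 34.4% of all genes tested. DESeq2, which called 1647 genes in all, called 3 of them, *SLC4A2* and *BSG* higher and *HVCN1* lower. *SLC16A1*, which carries lactate together with a proton, was the most highly read, at 472.8 ± 28.1 CPM in sh-control and 450.03 ± 55.4 in sh-*RREB1*, with overlapping groups. *SLC26A2*, a sulfate transporter, was at 143.1 ± 15.0 and 108.4 ± 12.3, and *SLC4A7*, a sodium bicarbonate cotransporter, at 126.3 ± 12.8 and 125.5 ± 29.4. None of these 3 was past the thresholds.

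With the GC and length offset the median of the 28 transporters was 0.07, and *HVCN1*, the voltage-gated proton channel, was the one gene past the thresholds. It was at 1.29 ± 0.0968 CPM in sh-control and 0.511 ± 0.138 in sh-*RREB1*, with a log2 fold change of -1.37 (adjusted p = 0.0152, edgeR) without the offset and -1.47 (adjusted p = 0.00422) with it. *BSG*, the chaperone of the lactate carriers, has exons of 63.5% GC, and its log2 fold change was 1.64 (adjusted p = 0.0128) without and 0.48 (adjusted p = 0.00426) with the offset. *SLC4A2*, an anion exchanger of 62.9% GC, went from 1.30 (adjusted p = 0.0581) to 0.17 (adjusted p = 0.488).

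The listed hypoxia genes gave no call either. The list holds regulators of the oxygen response, such as *HIF1A*, *ARNT*, *VHL* and *HIF1AN*, beside genes that rise with low oxygen. Its medians and counts are therefore not those of induced genes alone. All 26 listed were tested, with a median log2 fold change of 0.09, and 9 higher and 4 lower were at an unadjusted p below 0.05 in edgeR, beside 34.4% of all genes, with 0 called by DESeq2. *HIF1A*, the oxygen-regulated subunit, was at 248.9 ± 23.6 and 229.7 ± 33.7 CPM with overlapping groups. *ENO1*, a glycolytic enzyme and the most highly read of the list, was at 1591 ± 443 and 2259 ± 552, with a log2 fold change of 0.51 and an adjusted p of 0.163 (edgeR). *HIF1AN* at 175.1 ± 5.94 and 161.7 ± 34.5 and *P4HA1* at 130.4 ± 9.31 and 95.05 ± 4.42 were the next by reads. In CPM, 9 of the 26 lay wholly above the controls and 6 wholly below, where 41.1% of all genes did not overlap. Among the higher were *VEGFA* (log2 fold change 0.80, and 0.28 with the GC and length offset), *SLC2A1* (0.88 and 0.59) and *LOX* (0.63 and 0.88). Among the lower was *KDM3A* (-0.60 and -0.44). With the offset the median of the list was 0.06.

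**Figure D4:**
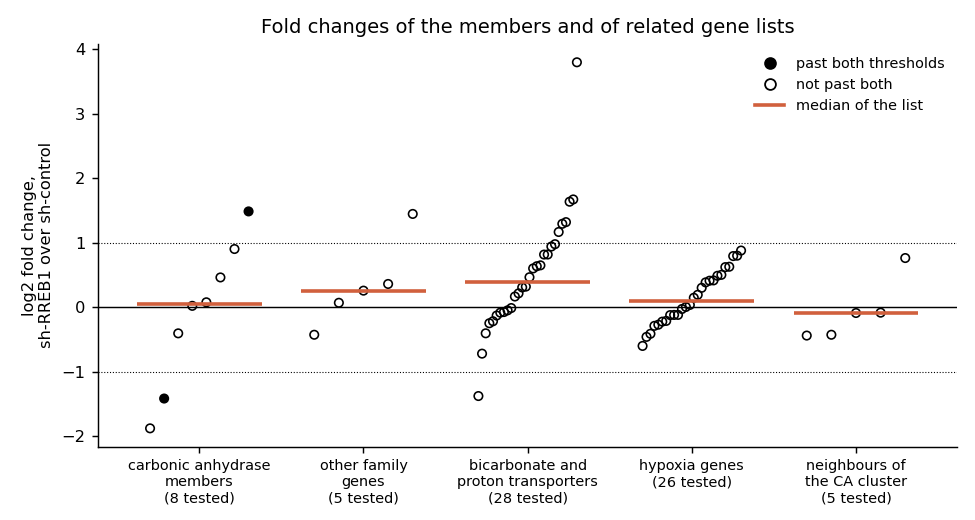
Log2 fold changes of sh-*RREB1* over sh-control (vertical axis) of each tested gene in 5 lists, with filled circles for genes past both thresholds, open circles for the rest, and an orange bar at the median of the list. *CA2* and *CA12* are the filled circles, and the medians of the transporters and the hypoxia genes are 0.40 and 0.09. The highest open circle is *SLC26A1*, at 0.029 CPM in sh-control and 0.39 in sh-*RREB1*.

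On chromosome 8 *CA2* lies at the end of a cluster with *CA13*, *CA1* and *CA3*. Of 30 genes other than the members annotated in the cluster or within 500 kb of it, *CA1* among them, 5 were tested and none was past the thresholds, with 0 at an unadjusted p below 0.05 (edgeR) and 0 called by DESeq2. The nearest, *CA3-AS1*, is read from the opposite strand from a start 0.9 kb inside *CA2*, and was at 1.11 ± 0.24 and 0.816 ± 0.141 CPM, with overlapping groups. Reads on the strand opposite *CA2* were 0 to 6 in any library. *RBIS* and *E2F5*, further along, were at 82.9 ± 6.22 and 78.4 ± 12.3 and at 55.0 ± 5.82 and 51.8 ± 10.7, with overlapping groups. *LRRCC1*, a centrosomal protein gene at the far end of the stretch, was at 32.1 ± 3.70 and 23.7 ± 5.37 CPM without overlap. Its log2 fold change was -0.44 (interval -0.87 to 0.0012), and -0.22 (-0.44 to -0.0013) with the GC and length offset, with an adjusted p of 0.146 and 0.144 (edgeR).

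**Figure D5:**
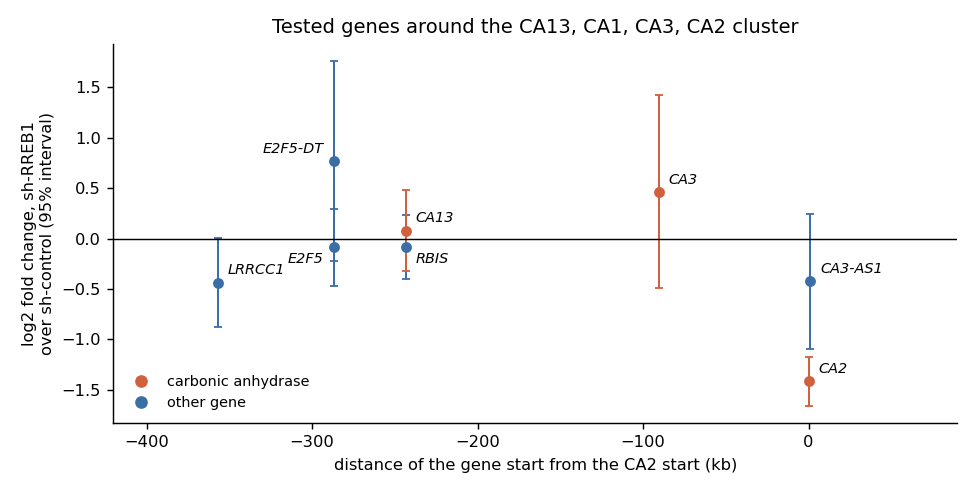
Log2 fold change of sh-*RREB1* over sh-control with its 95% interval (vertical axis) against the distance of each gene's start from the start of *CA2* in kb (horizontal axis), for the tested carbonic anhydrases (orange) and other genes (blue) around the cluster. *CA2* is at -1.41, and the intervals of the other 7 genes include 0, that of *LRRCC1* barely. With the GC and length offset, not drawn, those of *LRRCC1*, *CA13* (0.02 to 0.55) and *E2F5-DT* (0.16 to 1.93) lie on 1 side of 0.

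The genes whose levels ran most like *CA2* over the 6 libraries were *ZNF184*, *SPA17*, *SYTL2*, *FBXO38* and *STRIP2*, with Pearson correlations of log2 CPM from 0.999 to 0.9998 among 14331 genes compared. Such values were common, since 1098 genes were above 0.95 and 440 below -0.95, and the points share the 2 groups and the depth of their libraries. *SPA17* was at 43.98 ± 2.26 and 16.01 ± 1.44 CPM and *FBXO38* at 82.3 ± 1.01 and 63.3 ± 0.999. Genes with the same pattern in CPM thus differed in the size of the difference. With the GC and length offset the log2 fold change was -1.26 for *SPA17* and -0.15 (interval -0.35 to 0.05) for *FBXO38*. Among the members *CA8* had a correlation with *CA2* of 0.92, *CA12* -0.96, *CA11* -0.78, *CA13* -0.31 and *CA5B* -0.16.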

How the data were processed

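The authors aligned stranded total RNA reads with STAR 2.4.2a to hg38 with Gencode 25 annotation and deposited whole-number read counts per gene. Of the 3 counts STAR gives, that on the strand of the gene was used. Of 58037 identifiers, 56948 had a symbol, and 55767 symbols were left after keeping the identifier with the most reads. Genes with at least 10 reads over the 6 libraries were tested in edgeR 4.0.16 (quasi-likelihood, TMM, condition only) under R 4.3.3, with Benjamini-Hochberg adjustment over 23304 genes, and called where the adjusted p was under 0.01 with a log2 fold change beyond 1 in either direction. DESeq2 1.42.0 and 21 other settings were alternatives. The GC and length offset used natural splines with 5 degrees of freedom, and exons were taken from Gencode 44. The fits were tried on simulated counts with the same dispersion for every gene and no GC or length bias. That trial therefore cannot show how they behave under the base-composition shifts of these libraries. The merged file of the series held the same deposited counts for 23026 identifiers.

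The members and lists were chosen with earlier results of these data known. Named genes were the members, called genes of each fixed list, up to 4 others with the most reads, the 5 closest to *CA2* and the nearest neighbours. *HVCN1*, *BSG*, *SLC4A2*, *SLC26A1*, *VEGFA*, *SLC2A1*, *LOX*, *KDM3A* and single marker genes were added after their values were seen. Intervals and floors cover counting error or spread between these libraries only. Of the 9 members and their family lists all values come from totals of 12257054 to 33044061 reads on genes.

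Of the other marker lists, differentiated kidney had 2 of 8 genes tested, osteoclast 2 of 3, leukocyte 1 of 3, fibroblast 3 of 3 and skeletal muscle 2 of 4. As reported, none of these was past the thresholds, with 0, 0, 0, 2 and 1 at an unadjusted p below 0.05 in edgeR (34.4% of all genes tested) and 1 fibroblast gene, *COL1A1*, called by DESeq2. *COL1A1* and *COL1A2* were both past them with a minimum of 1 read and with the replicate block. *COL1A2* was also past them with the offset and replicate block.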

Additional observations from a re-analysis of the deposited data

How the results depend on the processing

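The whole table gave 794 genes past the thresholds, and 1647 with DESeq2, 1801 with a minimum of 1 read and 1684 with the replicate block. Leaving out 1 library gave 8 to 1117 genes, and with the GC and length offset 459 to 713 (506 without sh-control 2 and 493 without sh-*RREB1* 1). *CA2* and *CA12*, the 2 members past the thresholds, were both past them under 18 of 22 alternatives, and leaving out 1 library gave 0 to 2 members without the offset and 1 to 3 with it. Of the transporters 0 were past them as reported, 3 with DESeq2, 4 with a minimum of 1 read, 1 with both strands counted, 2 with the replicate block, 1 with the offset and 1 with the offset and replicate block, and leaving out 1 library gave 0 to 2, with the offset 0 to 1. Neither the hypoxia genes, the other listed family and related genes, the neighbours nor *RREB1* gave a call under any alternative, and the cause of the shifts was not tested. The replicate numbers are not shown to pair the libraries, since deviations of same-numbered libraries correlated at 0.50, 0.43 and -0.28. With the offset and replicate block *RREB1* was at -0.37 (edgeR, adjusted p = 0.0109, 0.0109 to 0.788 over its fits). With the replicate block *CA2* was at -1.42 and *CA12* at 1.47. The signs of *CA13* (1 alternative) and *CA5B* (4) turned. Depth limits *CA3*, *CA9* and *CA14*, with at most 22 reads in a library.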
